A study of Oryza sativa with 6 samples.

Results

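The genes described here are those whose response to salt differed between the lateral roots and the nodal roots of rice, in the same direction in both kinds of lateral root. Messenger RNA was sequenced from S-type lateral, L-type lateral and nodal roots of plants with the genotype label Mulai, after 7 days with 50 mM NaCl and under control conditions. S-type laterals are short and thin and stay unbranched, whereas L-type laterals grow longer and carry branches of their own. Nodal roots arise from the stem and bear the laterals. The groups were salt S-type, control S-type, salt L-type, control L-type, salt nodal and control nodal roots, with 1 library each. All libraries carry the same genotype label, and the labels name no transgene or mutation. The labels do not say how many plants were pooled in a library, or whether the root types were cut from the same plants.

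For each gene the log2 ratio of salt over control was taken in each root type, as (salt + 1)/(control + 1) on the deposited scaled fragments. The nodal ratio was then subtracted from the mean of the S-type and L-type ratios, and this lateral minus nodal difference is called the difference below. Of 37942 gene models, 10178 had at least 200 scaled fragments in their highest library. In 6461 of these, both lateral ratios lay on the same side of the nodal ratio, and these 6461 genes are the set described. Both laterals lay above the nodal ratio in 3218 genes and below it in 3243. In the other 3717 genes the lateral ratios did not lie on 1 side of the nodal ratio. Because each ratio compares 1 library with 1 library, no difference has a replicate check. Each interval given for a ratio is an exact binomial 95% interval, which reflects counting error alone and treats fragments as if they were independent molecules.

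Between 5620282 and 8711710 fragments fell in gene models in each library. The secondary wall cellulose synthases CESA4, CESA7 and CESA9, which mark woody vascular tissue, summed to 131 and 126 scaled fragments in salt and control S-type roots, 1169 and 758 in L-type roots, and 4613 and 6252 in nodal roots. Markers of dividing cells (CYCB1-1 and CDKB2-1) summed to 514 and 438 in salt and control S-type roots, 1314 and 1347 in L-type roots, and 1184 and 1200 in nodal roots. Root hair markers (EXPA17 and CSLD1) summed to 135 and 108 in salt and control S-type roots, 79.1 and 55.1 in L-type roots, and 500 and 401 in nodal roots. The photosynthetic antenna genes CAB1R and CAB2R summed to 26.1 and 65.6 in salt and control S-type roots, 54.3 and 195 in L-type roots and 48.1 and 225 in nodal roots. They were thus present at a low level in every library and lower under salt in each root type. In whole roots, fewer cells of a type and less RNA per cell cannot be told apart.

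Grasses such as rice take up much of their iron with phytosiderophores, small molecules that are secreted into the soil, bind ferric iron and are taken back up as a complex. Nicotianamine synthase makes the precursor nicotianamine from S-adenosylmethionine, nicotianamine aminotransferase carries out the next step, and transporters of the yellow stripe-like (YSL) family carry iron bound to phytosiderophores or to nicotianamine. Rice root cells also express transporters for free ferrous iron. The genes of this pathway are known to be switched on when rice roots lack iron. Metallothioneins are small cysteine-rich proteins that bind metals inside cells.

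Of the 15 genes with the lowest difference shared by both laterals, 5 (NAS2, NRAMP1, NAS1, YSL15 and YSL2) belong to this pathway. The list of iron uptake and phytosiderophore genes holds 9 of the 10178 genes with at least 200 scaled fragments. It was written with earlier results of these libraries known, so this count is no independent evidence. In both kinds of lateral root, salt-grown roots held far less transcript of NAS1, NAS2 and NAAT1 than control roots. In nodal roots, salt-grown roots held about as much or more. NAS3, which stayed under 200 scaled fragments, went the other way in the laterals and is given below. NAS2 (Os03g0307200, IRGSP-1.0 chromosome 3, 10926323 to 10927978), a nicotianamine synthase, had 45.0 and 2312 scaled fragments in salt and control S-type roots, 106 and 1368 in salt and control L-type roots, and 804 and 535 in salt and control nodal roots. The salt library was the lower one in both laterals and the higher one in nodal roots. Its log2 ratios were -5.65 (interval -6.12 to -5.28) in S-type, -3.68 (-3.98 to -3.41) in L-type and 0.59 (0.44 to 0.74) in nodal roots, which gave a difference of -5.25, the lowest among the 6461 genes.

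NAS1 (Os03g0307300, chromosome 3, 10929507 to 10930895), the neighbouring nicotianamine synthase gene, had 51.3 and 1727 scaled fragments in salt and control S-type roots, 122 and 730 in L-type roots, and 590 and 370 in nodal roots. It showed the same arrangement as NAS2, with ratios of -5.05, -2.57 and 0.67 and a difference of -4.48. NAS1 and NAS2 are close copies, and how reads shared by such copies were assigned is not given in the sources used here. NAAT1 (Os02g0306401, chromosome 2, 11997126 to 12002625), the aminotransferase that acts on nicotianamine, had 135 and 1772 scaled fragments in salt and control S-type roots, 175 and 987 in L-type roots, and 399 and 472 in nodal roots. Its ratios were -3.70 (-3.97 to -3.47) in S-type, -2.49 (-2.73 to -2.27) in L-type and -0.24 (-0.42 to -0.06) in nodal roots, so that only the laterals passed 2-fold, with a difference of -2.86.

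The control values rank the root types in the opposite order to the salt values. Under salt, NAS1, NAS2 and NAAT1 were each lowest in S-type and highest in nodal roots. Under control conditions each was highest in S-type and lowest in nodal roots. On the authors' FPKM scale, which accounts for gene length, NAS2, NAS1 and NAAT1 stood at 4.99, 6.15 and 14.3 in salt S-type roots and at 256, 207 and 186 in control S-type roots. In nodal roots the same genes stood at 87.8, 69.3 and 42.0 under salt and at 58.4, 43.7 and 49.9 under control conditions.

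Genes upstream of nicotianamine differed less. SAMS2, an S-adenosylmethionine synthetase that belongs to the same list, had a difference of -0.38, with ratios of -0.73 in S-type, -0.45 in L-type and -0.20 in nodal roots. IDI2 (Os11g0216900), which acts in the recycling of methionine that feeds the pathway and was named after its values were seen, had 87.3 and 253 scaled fragments in salt and control S-type roots, 172 and 190 in L-type roots, and 251 and 222 in nodal roots. Its difference of -1.01 came mainly from the S-type ratio of -1.53, since the L-type ratio was -0.15 and the nodal ratio 0.18.

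**Figure D1:**
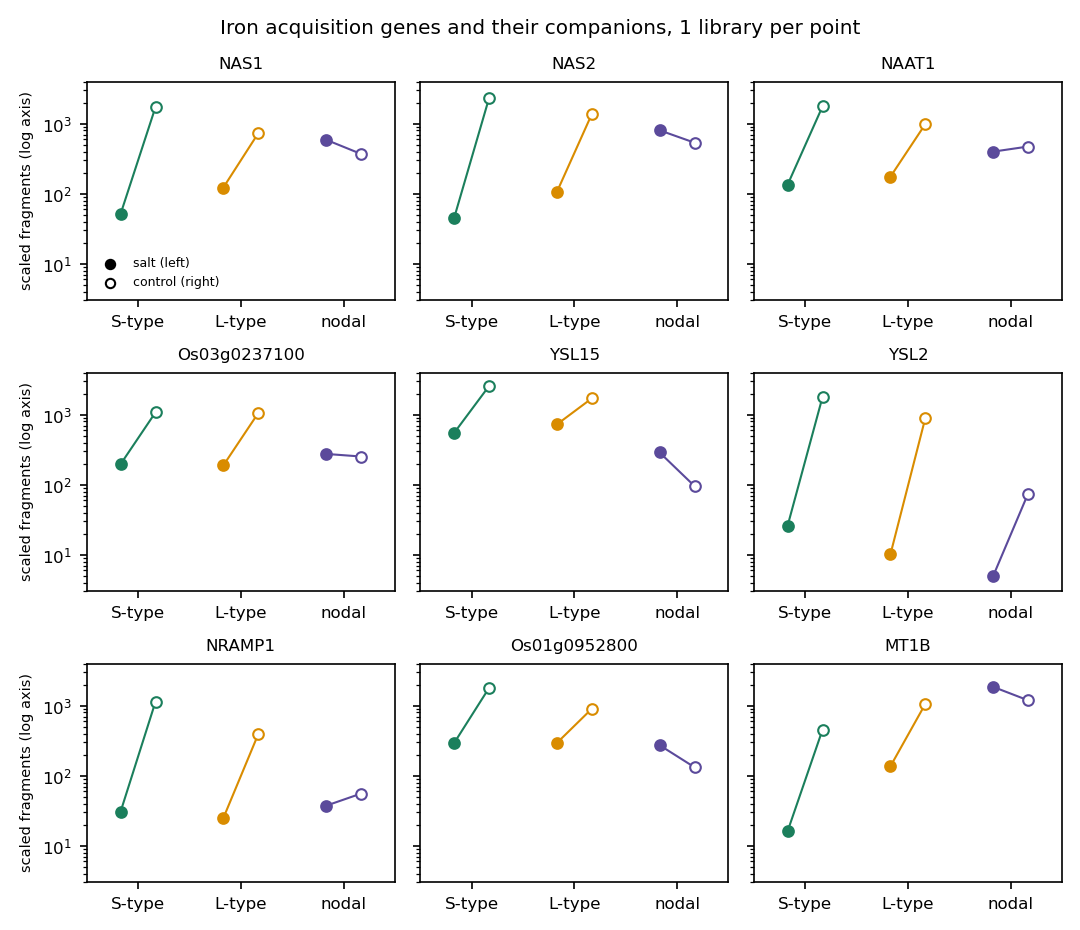
Scaled fragments (log axis) of 6 iron acquisition genes, the metallothionein gene MT1B and the unnamed genes Os03g0237100 and Os01g0952800, with 1 point per library, filled for salt and open for control, joined within S-type, L-type and nodal roots. In all 9 panels both lateral types are lower under salt than under control, while nodal roots are lower under salt for NAAT1 (399 against 472), NRAMP1 (37.3 against 55.6) and YSL2 (4.98 against 74.7) and higher for the other 6.

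The transporters of the pathway did not all behave as NAS1, NAS2 and NAAT1 did. YSL15 (Os02g0650300, chromosome 2, 26200020 to 26204980), the root transporter of iron bound to phytosiderophore, had 548 and 2563 scaled fragments in salt and control S-type roots, 726 and 1709 in L-type roots, and 289 and 95.6 in nodal roots. The direction was therefore opposite, with ratios of -2.22 (-2.36 to -2.09) in S-type, -1.23 (-1.36 to -1.11) in L-type and 1.58 (1.28 to 1.92) in nodal roots, and a difference of -3.31. Unlike NAS1, NAS2 and NAAT1, YSL15 was higher in both laterals than in nodal roots with and without salt. The 2 lateral types changed places, with S-type highest under control conditions and L-type highest under salt.

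YSL2 (Os02g0649900, chromosome 2, 26170850 to 26175202), which carries metals bound to nicotianamine, had 26.1 and 1801 scaled fragments in salt and control S-type roots, 10.1 and 898 in L-type roots, and 4.98 and 74.7 in nodal roots. It was lower under salt in every root type, and its difference of -2.53 reflects ratios of -6.05 and -6.34 in the laterals against -3.66 in nodal roots. The nodal salt value rests on 6 fragments, and the nodal interval ran from -5.39 to -2.73. NRAMP1 (Os07g0258400, chromosome 7, 8965787 to 8970880), a transporter of divalent metal ions, had 30.6 and 1138 scaled fragments in salt and control S-type roots, 24.8 and 392 in L-type roots, and 37.3 and 55.6 in nodal roots. Its difference was -3.99. All 3 salt libraries held a similar low level, and the control libraries set the root types apart.

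YSL16 (Os04g0542800), another carrier of metal and nicotianamine complexes, had a difference of -1.06 that came from nodal roots. It had 754 and 671 scaled fragments in salt and control S-type roots, 699 and 441 in L-type roots, and 362 and 129 in nodal roots. Its family member YSL9 had a difference of -0.37.

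Taking the list of iron uptake and phytosiderophore genes as a whole, 13 of 24 recalled names passed the check of names and 9 of those 13 had at least 200 scaled fragments. All 9 belonged to the set. Of these 9, 7 had a salt ratio at least 2-fold lower in laterals than in nodal roots (NAS2, NAS1, NRAMP1, YSL15, NAAT1, YSL2 and YSL16) and 0 had one at least 2-fold higher. Over all 10178 genes, 2.47% were at least 2-fold lower on the same side and 1.02% at least 2-fold higher. The median difference of the list was -2.86, with median ratios of -3.70 in S-type, -2.49 in L-type and 0.21 in nodal roots, whereas the median difference of all 10178 genes was -0.01. The list was written with earlier results of these libraries known and is no independent evidence of its direction.

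Of the other iron genes with a passing name, most stayed under 200 scaled fragments. IRT1 (Os03g0667500), a transporter of ferrous iron, had 4.50 and 45.0 scaled fragments in salt and control S-type roots, 1.84 and 42.6 in L-type roots, and 16.6 and 14.8 in nodal roots. Its paralog IRT2 was at 0 in all salt libraries and had 34.7, 16.3 and 0.869 scaled fragments in control S-type, L-type and nodal roots. NAS3, the third nicotianamine synthase gene, went the other way. It had 90.9 and 29.6 scaled fragments in salt and control S-type roots, 109 and 52.6 in L-type roots, and 124 and 63.4 in nodal roots, so that salt was the higher library in all of them. IDEF1, a regulator of the iron deficiency response, differed little between salt and control in each root type, with 116 and 122, 153 and 140, and 95.4 and 85.1 scaled fragments. IRO3, a further regulator, had 129 and 194 scaled fragments in salt and control S-type roots, 34.0 and 88.9 in L-type roots, and 39.8 and 46.9 in nodal roots. VIT2 (Os09g0396900), which loads iron into the vacuole, had 646 and 93.9 scaled fragments in salt and control S-type roots, 625 and 174 in L-type roots, and 301 and 91.2 in nodal roots. VIT2 was over 200 scaled fragments and higher under salt in every root type, and its difference of 0.59 was under 2-fold.

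Metallothionein genes were a further group with lower lateral ratios. MT1B (Os12g0570700, chromosome 12, 23501423 to 23502359) had 16.2 and 456 scaled fragments in salt and control S-type roots, 136 and 1060 in L-type roots, and 1856 and 1193 in nodal roots. The salt value was the lower one in both laterals and the higher one in nodal roots, with ratios of -4.73 (-5.59 to -4.13), -2.95 (-3.22 to -2.71) and 0.64 (0.54 to 0.74), and a difference of -4.48. MT1C (Os12g0571100, chromosome 12, 23515075 to 23516013) had 6555 and 22838 scaled fragments in salt and control S-type roots, 2656 and 4048 in L-type roots, and 1440 and 1143 in nodal roots. Its difference was -1.54, and -0.94 with L-type alone. MT1A (Os11g0704500) had 15985 and 26025 scaled fragments in salt and control S-type roots, 10915 and 14145 in L-type roots, and 5321 and 3851 in nodal roots, which gave -1.005.

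Of 8 recalled metallothionein names 3 passed the check of names, and these 3 each had a difference at least 2-fold lower, against 2.47% of all genes. The list was put together after the values were seen. The salt libraries were below the control libraries in both laterals and above them in nodal roots for each of the 3. Between MT1B and MT1C lies Os12g0571000, which had 44.1 and 513 scaled fragments in salt and control S-type roots, 10.1 and 48.9 in L-type roots, and 14.1 and 13 in nodal roots. Near them on chromosome 12, from 23382984 to 23395621, lie Os12g0568200 with a difference of -2.21 and Os12g0568500 with -3.50. Os12g0568500 was abundant, with 1323 and 5943 scaled fragments in salt and control S-type roots, 304 and 2922 in L-type roots, and 194 and 112 in nodal roots. Reads from near-identical neighbours may have been split between them.

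Beyond metals, the set as a whole was narrow. The quartiles of the 6461 differences were -0.31 and 0.26, and 6106 genes differed by less than 2-fold. The lateral ratio was at least 2-fold above the nodal ratio in 104 genes, or 1.02% of 10178, and at least 2-fold below it in 251, or 2.47%. The ratio of each lateral type by itself was at least 2-fold from the nodal one in 61 of the 104 and 131 of the 251. At least 4-fold apart were 24 genes above and 36 below. The intervals of both lateral ratios lay wholly above the nodal interval in 57 of the 104 genes, or 54.8%, and wholly below it in 175 of the 251, or 69.7%. Among all 10178 genes the corresponding shares were 4.61% and 5.47%. The 104 and 251 genes were picked by these same ratios, so their higher shares follow in part from that choice. A root type held 3 fragments or fewer in both libraries in 13 of the 104 genes and 1 of the 251.

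**Figure D2:**
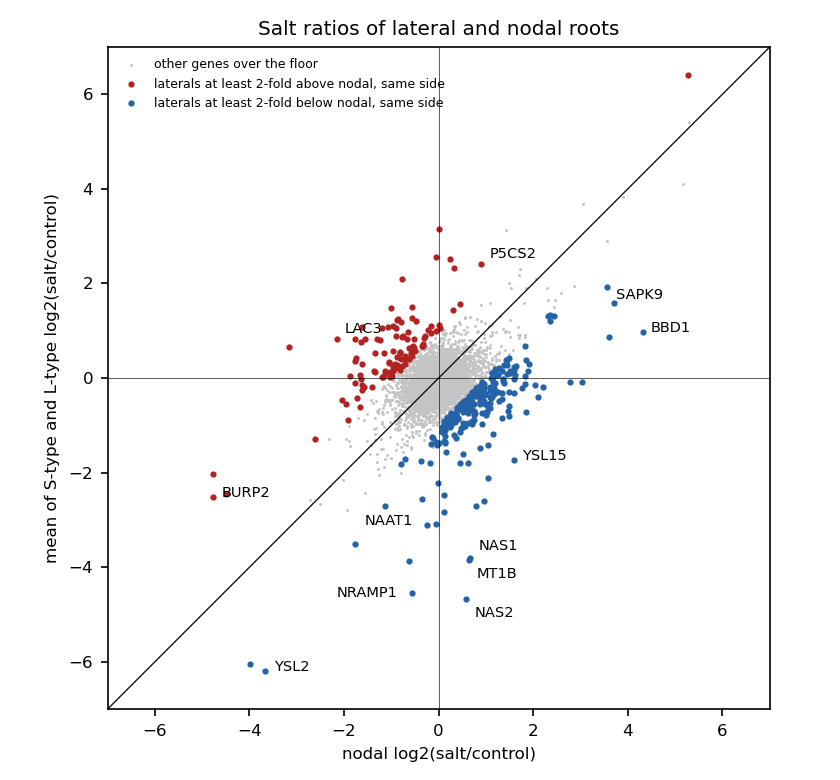
Nodal log2 ratio of salt over control (horizontal) against the mean of the S-type and L-type ratios (vertical), with 1 point for each of the 10178 genes. The diagonal marks equal ratios, red points are the 104 genes at least 2-fold above nodal and blue points the 251 at least 2-fold below. The labelled iron genes and MT1B lie below the diagonal, with nodal ratios of -0.24 for NAAT1, 0.59 for NAS2, 0.64 for MT1B, 1.58 for YSL15 and -3.66 for YSL2.

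The difference could come from either side of the contrast. By the sign of the ratios alone, whatever their size, it more often combined both. Among the 251 lower genes the nodal ratio was above 0 in 231 and both lateral ratios were below 0 in 164. Nodal roots were at least 2-fold higher under salt in 86 of them, and both laterals were at least 2-fold lower in 29. The nodal counts here and below ask for 2-fold in 1 ratio and the lateral counts for 2-fold in both, so they are not on equal terms. The lateral shares over all genes are for each lateral type by itself and do not match the counts of both. Over all 10178 genes, 1.63% were at least 2-fold higher under salt in nodal roots, while the share at least 2-fold lower was 1.46% for S-type and 4.28% for L-type roots. Among the 104 higher genes the nodal ratio was below 0 in 95 and both lateral ratios were above 0 in 64. Nodal roots were at least 2-fold lower under salt in 43, and both laterals were at least 2-fold higher in 12. Over all genes, 1.15% were at least 2-fold lower in nodal roots, and the share at least 2-fold higher was 1.4% for S-type and 1.07% for L-type roots. The S-type and L-type ratios differed from each other by at least 2-fold in 30 of the 104 and 82 of the 251.

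Genes moved at least 2-fold by salt in both laterals, with a nodal log2 ratio under 0.5 in size, numbered 22 of the 10178. Of these 22, 9 were higher and 13 lower under salt. NAAT1 is one of the 13. Os03g0237100 (chromosome 3, 7228797 to 7231670) had nearly the same values in both laterals. It had 196 and 1079 scaled fragments in salt and control S-type roots, 189 and 1055 in L-type roots, and 275 and 253 in nodal roots, with ratios of -2.45, -2.48 and 0.12. Os09g0453800 (chromosome 9, 17024575 to 17028546) was abundant in every root type, with 501 and 1507 scaled fragments in salt and control S-type roots, 541 and 2159 in L-type roots, and 874 and 634 in nodal roots. Its difference was -2.25.

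RGLP2 (Os08g0189900), a germin-like protein gene, had 31.5 and 333 scaled fragments in salt and control S-type roots, 14.7 and 108 in L-type roots, and 12.4 and 13 in nodal roots. Its nodal ratio rests on 15 fragments in each library, and the nodal interval ran from -1.20 to 1.07. Among the smaller but evenly supported changes, Os06g0486800 had ratios of -1.12, -1.16 and 0.08, and Os05g0554000 had -1.09, -1.09 and 0.14.

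The 9 genes that were higher in both laterals only had lower counts. Os01g0968100 (chromosome 1, 42699901 to 42701251) had 64.8 and 7.71 scaled fragments in salt and control S-type roots, 78.2 and 16.3 in L-type roots, and 333 and 344 in nodal roots. The salt laterals lay nearer to the nodal level than the control laterals did, and the difference was 2.60. Os01g0129600 had 226 and 25.7 scaled fragments in salt and control S-type roots, 132 and 43.8 in L-type roots, and 137 and 109 in nodal roots. EXPB15 (Os04g0552000), an expansin that loosens cell walls, had 58.5 and 21.9 scaled fragments in salt and control S-type roots, 111 and 32.6 in L-type roots, and 301 and 220 in nodal roots, and a difference of 1.11. Os12g0442800 had 752 and 215 scaled fragments in salt and control S-type roots, 339 and 162 in L-type roots, and 242 and 196 in nodal roots.

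Os02g0586000 had the largest difference of the 9, 3.15, but its transcripts were almost confined to S-type roots. It had 970 and 45.0 scaled fragments in salt and control S-type roots, 3 and 0 fragments in L-type roots, and 0 in both nodal libraries. Neither its L-type nor its nodal ratio can be measured at this depth. Os11g0255500 was likewise at 0 in both nodal libraries. These 2 genes entered the class because 0 against 0 gives a ratio of 0.

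**Figure D3:**
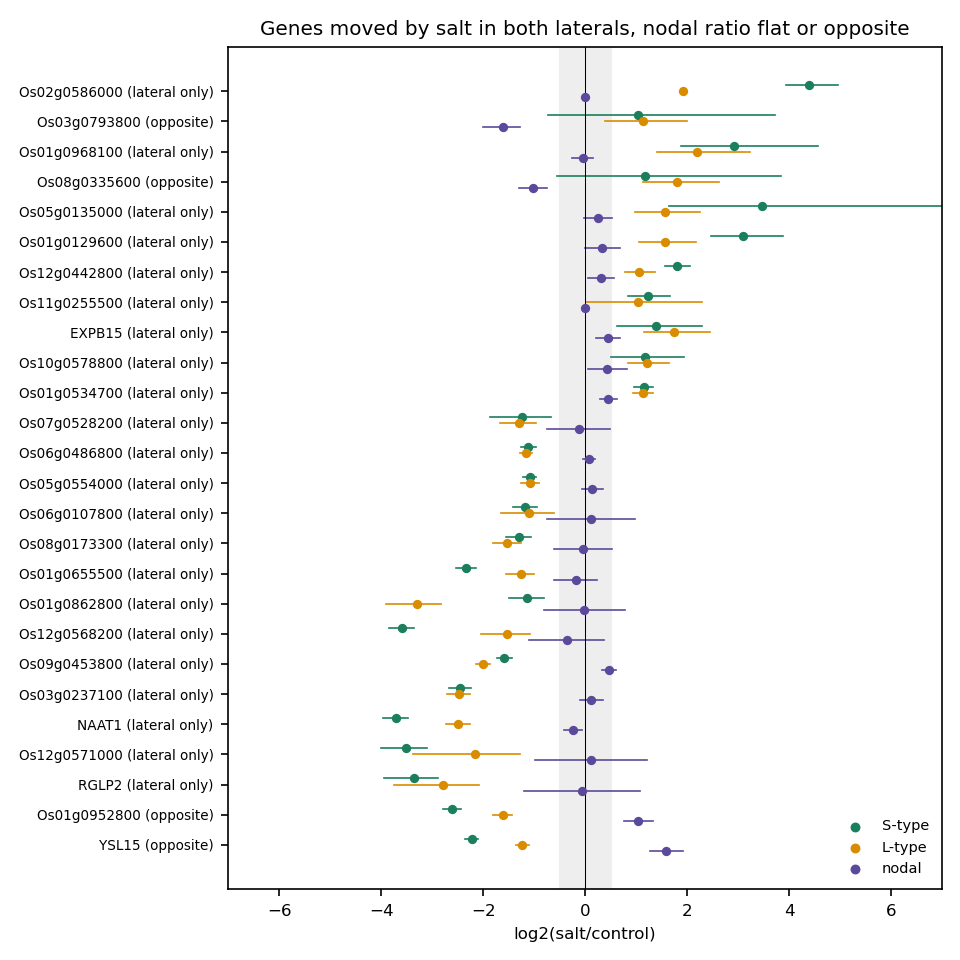
Log2 ratios of salt over control in S-type, L-type and nodal roots for the 22 genes moved at least 2-fold in both laterals with a nodal ratio within the grey band (under 0.5 in size) and for the 4 genes moved in opposite directions. Horizontal lines are exact binomial 95% intervals, left out where a library was at 0, and the S-type interval of Os05g0135000 runs beyond the axis to 9.60.

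Another 4 of the 10178 genes moved at least 2-fold in opposite directions. With laterals lower were YSL15 and Os01g0952800 (chromosome 1, 41971444 to 41978093). Os01g0952800 had 293 and 1790 scaled fragments in salt and control S-type roots, 293 and 903 in L-type roots, and 273 and 132 in nodal roots, so that the 3 salt libraries were close to each other. Its model shares its deposited coordinates with Os01g0952900, whose difference was -1.02, and reads may have been shared between them. With laterals higher were Os08g0335600, with a difference of 2.50, and Os03g0793800, with 2.70. Os08g0335600 had 9.90 and 3.86 scaled fragments in salt and control S-type roots, 90.1 and 25.1 in L-type roots, and 134 and 271 in nodal roots. Os03g0793800 had 9.0 and 3.86 in salt and control S-type roots, 53.3 and 23.8 in L-type roots, and 70.5 and 218 in nodal roots. The S-type intervals of both included 0, from -0.56 to 3.84 and from -0.73 to 3.72.

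Genes moved at least 2-fold in nodal roots alone, with both lateral ratios under 0.5 in size, numbered 65 of the 10178. This count asks for 2-fold in 1 ratio and the count of 22 for 2-fold in both lateral ratios, so they are not on equal terms. Of the 65, 47 were higher under salt in nodal roots and 18 lower. Os11g0426400 had the lowest difference of the 47, -3.12. It had 1437 and 1393 scaled fragments in salt and control S-type roots, 397 and 465 in L-type roots, and 85.4 and 9.56 in nodal roots. Os12g0136500 was the most abundant of those given here, with 14205 and 15555 scaled fragments in salt and control S-type roots, 11862 and 9501 in L-type roots, and 6905 and 2520 in nodal roots. In both genes the nodal salt value stayed under every lateral value while being higher than the nodal control. Of the 18, CIPK31 (Os03g0319400), a kinase of the family that works with calcineurin B-like calcium sensors, had 13.5 and 15.4 scaled fragments in salt and control S-type roots, 37.7 and 41.3 in L-type roots, and 101 and 311 in nodal roots.

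A further 33 genes of the set moved at least 2-fold the same way in all 3 root types, 16 higher and 17 lower under salt, and 11 of these were still 2-fold apart between laterals and nodal roots. SAPK9 (Os12g0586100), a kinase of the abscisic acid and osmotic stress pathway, was higher under salt everywhere, with 4605 and 1241 scaled fragments in salt and control S-type roots, 2411 and 611 in L-type roots, and 1348 and 113 in nodal roots. Its difference was -1.63, because the nodal ratio of 3.57 exceeded the lateral ratios of 1.89 and 1.98. BURP2 (Os05g0217800), of a plant-specific protein family, was lower under salt everywhere, with 0 and 1.29 scaled fragments in salt and control S-type roots, 1.84 and 40.1 in L-type roots, and 43.1 and 1203 in nodal roots. Its S-type ratio rests on 1 fragment, and its difference of 2.25 was 3.39 with a pseudocount of 10 and 0.92 with L-type alone.

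Outside the iron and metallothionein genes, the lowest difference shared by both laterals among genes with a symbol was that of BBD1 (Os01g0702000), which encodes a nuclease. It had 700 and 323 scaled fragments in salt and control S-type roots, 228 and 129 in L-type roots, and 105 and 4.34 in nodal roots. Its difference of -3.35 came from the nodal ratio of 4.31, whose interval ran from 3.34 to 6.25 because the nodal control held 5 fragments. With a pseudocount of 10 the difference was -2.07. At the other end, the highest shared difference was that of Os01g0216300, with 0 and 0 scaled fragments in S-type, 4.60 and 1.25 in L-type and 33.2 and 306 in nodal roots under salt and control. Its S-type ratio cannot be measured at this depth. LAC3 (Os01g0827300), a laccase of a family that oxidizes phenolics in the wall, came next. It had 18.9 and 9.0 scaled fragments in salt and control S-type roots, 53.3 and 33.8 in L-type roots, and 94.5 and 426 in nodal roots, with a difference of 2.98. The lateral intervals of LAC3 included 0 and the nodal interval, -2.48 to -1.87, did not.

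Where the threshold fell can be seen from its neighbours. Just inside were Os09g0543900 with -1.0001 and Os10g0516200 with 1.0007, and just outside were Os09g0434900 with -0.9998 and Os08g0556300 with -0.9990. In Os09g0543900 the L-type ratio of -2.53 set the difference, while the S-type ratio of -0.88 was close to the nodal ratio of -0.70.

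The difference was graded by where a gene was expressed. Genes were placed in 5 classes by their mean log2 level in laterals minus that in nodal roots, over salt and control together. Where laterals exceeded nodal roots by at least 8-fold (116 genes), 59 genes were at least 2-fold lower in their difference and 6 higher. Their median ratios were -0.08 in S-type, -0.70 in L-type and 0.59 in nodal roots, and the median difference was -1.01. Where laterals exceeded nodal roots by 2- to 8-fold (1418 genes), 142 were lower and 8 higher, with a median difference of -0.41.

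Within 2-fold in level (7795 genes), 46 were lower and 13 higher, and the median difference was 0.01. Where nodal roots exceeded laterals by 2- to 8-fold (771 genes), 2 were lower and 42 higher, with a median of 0.32. Where they exceeded laterals by at least 8-fold (78 genes), 2 were lower and 35 higher, with median ratios of 0.08 in S-type, 0.39 in L-type and -0.61 in nodal roots and a median difference of 0.90. By their medians, genes typical of laterals were thus higher in nodal roots and lower in L-type roots under salt, and genes typical of nodal roots showed the reverse, while the S-type medians lay near 0. The classes and the differences come from the same libraries, and a low nodal control value enters both.

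**Figure D4:**
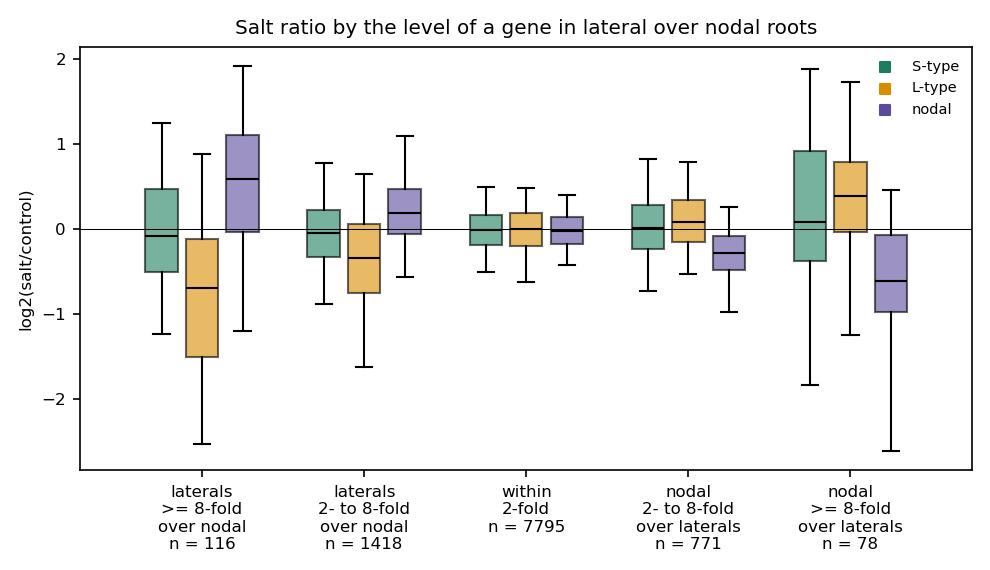
Log2 ratios of salt over control in S-type, L-type and nodal roots for 5 classes of genes by level in laterals over nodal roots (boxes are quartiles with the median, whiskers the 5th and 95th percentiles, n is the number of genes). L-type medians run from -0.70 at the left to 0.39 at the right, and nodal medians from 0.59 to -0.61.

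Across the 10178 genes, the lateral and nodal levels lay closer together under salt. The SD of the lateral minus nodal log2 level was 0.94 under salt and 1.19 under control conditions. Genes at least 2-fold apart in level between L-type and nodal roots numbered 788 under salt and 1955 under control. Between S-type and nodal roots they numbered 3512 under salt and 4144 under control. The part of these closer levels in the differences of single genes was not tested.

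In the other gene lists few genes were 2-fold apart, as was so over all genes. Of all 10178 genes, 1.02% were at least 2-fold higher and 2.47% at least 2-fold lower. At these shares a list of this size would hold few such genes or none. The counts in the lists below therefore do not set them apart. None of 13 zinc, manganese and copper transporters over 200 scaled fragments was 2-fold apart, although their median difference was -0.38. In that list ZIP1, a zinc transporter, was higher under salt in every root type, with ratios of 1.51 in S-type, 1.78 in L-type and 2.45 in nodal roots. The copper transporter COPT1 (Os01g0770700), named after its values were seen, had 1.29, 1.35 and 2.44 and a difference of -1.12. NRAMP5, the main manganese transporter of rice roots, had a difference of -0.70 and ZIP9 had -0.69.

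Of 13 genes of the abscisic acid and dehydration response, 1 was at least 2-fold higher and 1, SAPK9, lower, with a median of -0.38. The higher one was P5CS2 (Os01g0848200), an enzyme of proline synthesis, with 33.3 and 2.57 scaled fragments in salt and control S-type roots, 144 and 48.9 in L-type roots, and 623 and 333 in nodal roots. Its difference of 1.50 rests in S-type roots on 2 control fragments, and was 0.70 with a pseudocount of 10 and 0.64 with L-type alone. NAC6 and DREB1C, stress-related transcription factors, had differences of -0.75 and -0.78 that came from L-type ratios of -1.05 and -1.36.

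Among 6 sodium and potassium transport genes, 12 aquaporins and 7 clock genes, 0 were 2-fold apart in either direction. Over all genes the shares were 1.02% higher and 2.47% lower. The medians of the 3 lists were -0.04, -0.07 and -0.23. The potassium channel AKT1 was lower under salt in every root type, with ratios of -0.98 in S-type, -0.53 in L-type and -1.51 in nodal roots. Aquaporins went both ways, from -0.91 for the vacuolar TIP1-2 to 0.92 for TIP2-2. Among 13 genes of nitrogen and phosphate transport the ammonium transporter AMT1-3 (Os02g0620600) was at least 2-fold higher. It had 468 and 346 scaled fragments in salt and control S-type roots, 193 and 62.6 in L-type roots, and 425 and 499 in nodal roots. Its difference was 1.25, and 0.67 with S-type alone, and that of AMT1-1 was 0.92.

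The medians of the cell wall lists leaned the other way from the iron list without passing 2-fold. The median difference was 0.75 in 6 secondary wall genes, 0.52 in 7 expansins and 0.39 in 10 primary wall genes. Of these 23 listed genes 0 were 2-fold apart in either direction, against 1.02% higher and 2.47% lower over all genes. CESA4, CESA7, CESA9 and BC1, which act in cellulose deposition in secondary walls, had differences between 0.75 and 0.81, with nodal ratios between -0.85 and -0.35. The lowest difference among the 6 secondary wall genes was 0.02. Wall genes named after their values were seen went both ways. CSLA3 had a difference of -1.53, while EXPB15 and LAC3, given above, were at least 2-fold higher. In 12 genes of auxin transport and root initiation, 9 cell cycle genes, 5 lignin genes and 4 fermentation genes 0 were 2-fold apart. In 9 genes of reactive oxygen metabolism the catalase gene CATA had 1.22, but its S-type value was 3.60 and 1.29 scaled fragments under salt and control, and the difference was 0.67 on the FPKM scale. The superoxide dismutase genes SODCC1 and SODCC2 were lower under salt in every root type and lower still in laterals, with differences of -0.92 and -0.72.

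**Figure D5:**
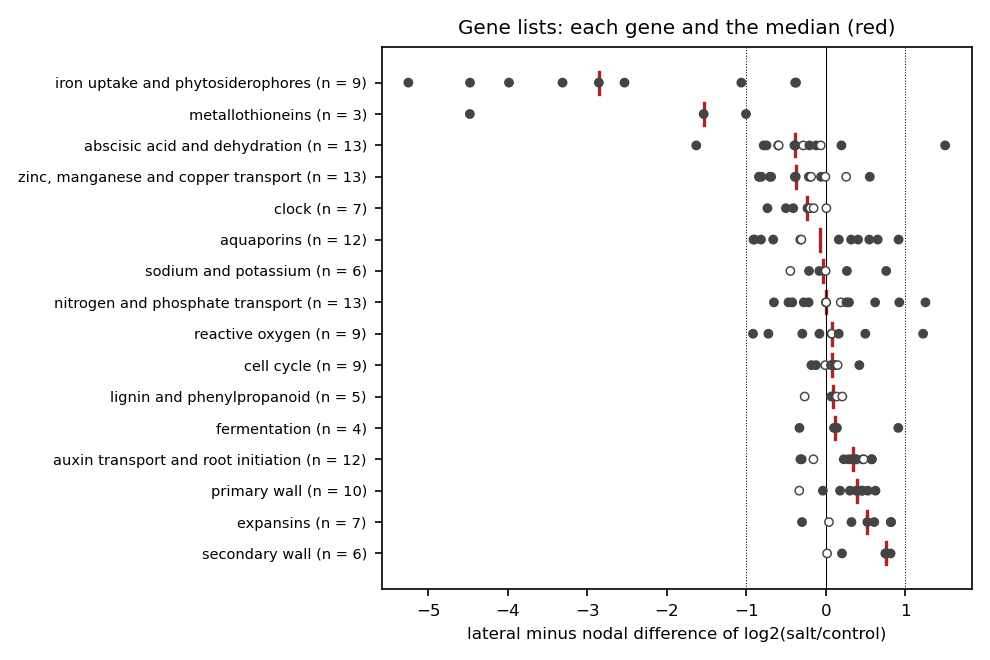
Lateral minus nodal difference of each gene over 200 scaled fragments in 16 lists (filled where both laterals lie on the same side of nodal, open otherwise), with the list median in red and dotted lines at 2-fold. The iron list (median -2.86) and the metallothioneins (median -1.54) lie apart to the left, while the medians of the other lists lie between -0.38 and 0.75.

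Some genes with like differences were neighbours. Among the 355 genes at least 2-fold apart, 68 lay in 30 groups within 50 kb of another that differed in the same direction, 17 genes in 7 groups above nodal and 51 genes in 23 groups below. The pairs NAS1 with NAS2 and YSL2 with YSL15 and the metallothionein run on chromosome 12 are among them. Above nodal, 4 genes on chromosome 10 from 21670510 to 21694502 (Os10g0552200, Os10g0552300, Os10g0552600 and Os10g0552700) had differences of 2.17, 1.68, 1.51 and 1.28. The most abundant of these, Os10g0552600, had 46.8 and 37.3 scaled fragments in salt and control S-type roots, 1237 and 1259 in L-type roots, and 2100 and 5403 in nodal roots. How many such groups other sets of genes hold was not tested, and neighbouring copies may share reads, so that a group need not be separate measurements.

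A model across all 10178 genes asked whether the salt effect differed between laterals and nodal roots. With 6 libraries and 5 coefficients it leaves 1 residual degree of freedom, which is the difference between the S-type and L-type responses and not a spread between replicates. By limma 0 genes, or 0.0%, had a Benjamini-Hochberg adjusted p under 0.05, and the smallest adjusted p was 0.999, while 356 had an unadjusted p under 0.05. By edgeR 0 genes passed and 366 had an unadjusted p under 0.05. By DESeq2 11 genes passed, all of them lower in laterals, and 133 had an unadjusted p under 0.05. The genes that passed by DESeq2 were NAS1, NAS2, NAAT1, YSL15, NRAMP1, MT1B, Os01g0952800, Os03g0237100, Os09g0453800, Os11g0426400 and Os12g0568500. DESeq2 gave no adjusted p for 395 of the 10178 genes. The unadjusted counts of all the tools lie under a share of 0.05 of the 10178 genes. That share would pass on average if no gene differed. The iron list, which holds some of the genes that passed, was written with earlier results of these libraries known and is no independent evidence.

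In the authors' deposited table, which compares single libraries, 14 genes were called between salt and control in S-type roots, 5 in L-type roots and 0 in nodal roots. Of the 14 S-type calls in the authors' deposited table, 7 had at least 200 scaled fragments in their highest library. All 7 of these belonged to the set. Of these 7, 5 had a difference at least 2-fold lower, among them NAS1, NAS2 and NAAT1, against 2.47% of all genes. Another 1, Os01g0322700, had a difference at least 2-fold higher, against 1.02%. Among the 5, Os11g0428800 changed little in S-type roots, with an FPKM of 16876 under salt and 18071 under control. Its FPKM under salt and control was 186 and 448 in L-type roots and 13.6 and 6.31 in nodal roots. The S-type calls rest on the same S-type libraries as the difference, so they are no independent evidence of it. The authors' deposited table gave NAAT1 a q-value of 0.0199 in S-type, 0.150 in L-type and 0.999 in nodal roots. It gave NAS2 a q-value of 0.0467 in S-type, 0.0845 in L-type and 0.999 in nodal roots, per the authors' deposited table. The table holds no comparison of the lateral response with the nodal one.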

How the data were processed

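Per the labels' protocols, strand-specific mRNA libraries were made from 6 root samples. Per the submitters' processing notes, Cuffdiff 2.2.1, Cufflinks 2.2.1, TopHat2 2.0.11, Bowtie and Trimmomatic 0.32 were used with the build IRGSP-1.0. The settings used, and whether counting used strand, are not given in the sources used here. The values of the deposited count table are a signal, each the authors' fragment count times a factor common to its library. Dividing by that factor gave whole fragments (within 0.02) for between 99.987% and 100.0% of values below 1000 fragments in each library. A further 24 columns of the count table were not used. The authors deposited FPKM values, p-values and q-values for pairs of libraries in a second table.

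Ratios used a pseudocount of 1 on the deposited signal and a floor of 200 in the highest library. limma 3.58.1 with a trend was fitted to log2(signal + 1) with root type, salt and lateral by salt. edgeR 4.0.16 and DESeq2 1.42.0 on recovered fragments were alternatives. The limma and edgeR fits were also run on simulated data, and the DESeq2 fit was not. No outcome of those runs is given here, and they do not stand in for replicates. Python 3.11 and R 4.3.3 were used.

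Of 326 recalled pairs of symbol and identifier, 237 passed a check against a RefSeq gene table of another rice assembly, by symbol, chromosome and an overlap of at least 0.3, a limit set after it was seen which passed. Genes without a passing symbol are named by identifier only. Named are listed genes at least 2-fold apart, the 15 highest and 15 lowest shared differences in part, lateral-only genes and those nearest the threshold. Further names were chosen after their values were seen. The members and lists were chosen with earlier results of these data known. Alternatives were the floor, pseudocount, scaling, FPKM, other tools and each lateral type alone.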

Additional observations from a re-analysis of the deposited data

Results flagged for a closer look

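In 4 genes salt moved both lateral types at least 2-fold one way and nodal roots at least 2-fold the other way. The lateral minus nodal difference was -3.31 for YSL15, -3.16 for Os01g0952800, 2.50 for Os08g0335600 and 2.70 for Os03g0793800. Each rests on 1 library per group, so that the opposite directions were not tested against a spread between replicates. For YSL15 and Os01g0952800 all 3 intervals of the salt ratio lay on 1 side of 0. For Os08g0335600 and Os03g0793800 the control S-type libraries held 3 fragments each, and the S-type intervals included 0.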

How the results depend on the processing

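No paired analysis was possible because each group holds 1 library and the groups share only the number 1. For the same reason no replicate could be left out, and each lateral type was instead set against nodal roots alone. The count of genes at least 2-fold higher, 104 as reported, was 410 with a floor of 50 scaled fragments, 39 with a floor of 500 and 207 with S-type alone. The count of lower genes, 251 as reported, was 475 with a floor of 50, 150 with a floor of 500 and 523 with L-type alone. With a floor of 50, genes moved in laterals only numbered 36 higher and 30 lower, and genes moved in nodal roots only 91 higher and 67 lower. With a nodal ratio under 0.3 in size, 4 genes were higher in laterals only. The fit called 11 genes by DESeq2 and 0 by limma and edgeR. Of the 355 genes, 343 stayed 2-fold apart with FPKM, 354 with TMM factors, 278 with a pseudocount of 10, 269 with S-type alone and 278 with L-type alone. A filter chosen after seeing the data, at least 10 fragments in 1 library of each root type, left 80 higher and 244 lower. PSK4, with 0 scaled fragments in the nodal control, had a difference of 0.33 with a pseudocount of 10, against -1.17 as reported.

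With S-type alone the median difference was -3.46 for the iron list, -0.29 for aquaporins, -0.085 for abscisic acid genes, 0.35 for secondary wall genes, -0.17 for lignin genes and -2.13 for metallothioneins. With L-type alone it was 0.22 for aquaporins, -0.70 for abscisic acid genes, -0.24 for nitrogen and phosphate genes, 0.35 for lignin genes and -0.94 for metallothioneins. The causes of these shifts were not tested.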
